A study of Saccharomyces cerevisiae with 3 samples.

Results

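The genes described here encode the calcium-activated phosphatase calcineurin, its transcription factor, its regulators, and the transporters that remove calcium from the cytosol of Saccharomyces cerevisiae. They were taken by name from the annotation of the array, and all 9 named genes were found, with 10 probe sets between them, out of 5656 genes with a probe set of their own. Total RNA came from S288c, a haploid laboratory strain of baker's yeast whose genome is the species reference, in 3 conditions. Cells had been kept for 5 h with 15 µM tomatidine, with 7.5 µM tomatidine, or with dimethylformamide (DMF) alone, and DMF was the solvent of the tomatidine cultures too. Tomatidine, a steroid-like alkaloid, is what remains of the tomato defence compound tomatine when its sugars are removed. Each condition had 1 Affymetrix yeast array, so there was no replicate and no test, and every difference below describes these 3 arrays, whose number limits the precision.

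Calcineurin is switched on when calcium enters the cytosol and binds calmodulin and the regulatory subunit of the enzyme. In yeast the active phosphatase removes phosphate from Crz1, a zinc finger transcription factor, which then enters the nucleus and switches on genes for calcium pumps, cell wall synthesis and ion transport. The pathway is known for survival of pheromone, salt, cell wall and membrane stress. It acts through phosphorylation and movement of Crz1, which a messenger RNA level does not show.

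Signals were divided by the median of their array, brought to a common level, and raised to a floor of 18.2 where they lay under it. That floor is the level below which 40% of the scaled signals of the 3 arrays lie. A gene was compared when it was above the floor on at least 1 array, which held for 4723 genes. Folds of 2 and of 1.5 were used as rules of size in place of a test. All 9 genes were above the floor on all 3 arrays. Their lowest signals ran from 1.10 times the floor for RCN1 to 10.8 times the floor for VCX1. Signals of different genes come from different probes and are not set against each other.

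The arrays themselves differed in ways that bear on these values. The bacterial and phage spike controls were 1.78-fold brighter on the DMF array than on the 15 µM array after scaling to the median, and 1.61-fold brighter on it than on the 7.5 µM array. Scaling the arrays on those spikes moved the median log2 ratio of all compared genes to 0.74 for 15 µM over DMF and 0.59 for 7.5 µM over DMF, against -0.03 and -0.03 with median scaling. As signs of RNA integrity, the probe set at the 3' end of ACT1, the actin gene, was 1.47 to 1.80 times as bright as that at its 5' end, and for SPT15 the factor was 2.35 to 3.30. Of the mating type genes used as markers, all 4 alpha cell genes were above the floor on each array and all 6 a cell genes were under it on each. The summed alpha cell signal was 4337 with DMF, 2981 at 7.5 µM and 2231 at 15 µM. The part of these differences in the results below was not tested.

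Among the 9 genes, 1 regulator and 1 pump were at least 1.5-fold higher at 15 µM than with DMF, against 8.26% of the compared genes. The pump was just past that line. RCN2, which encodes a calcineurin regulator of the calcipressin family, and PMC1, the calcium pump of the vacuole membrane, were higher after tomatidine, with the signal larger at the higher dose. PMR1, the calcium and manganese pump of the Golgi, had the same order of signals with smaller ratios. None of the genes for the subunits of calcineurin, nor CRZ1, reached 1.5-fold in any comparison with the arrays scaled to their median.

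**Figure D1:**
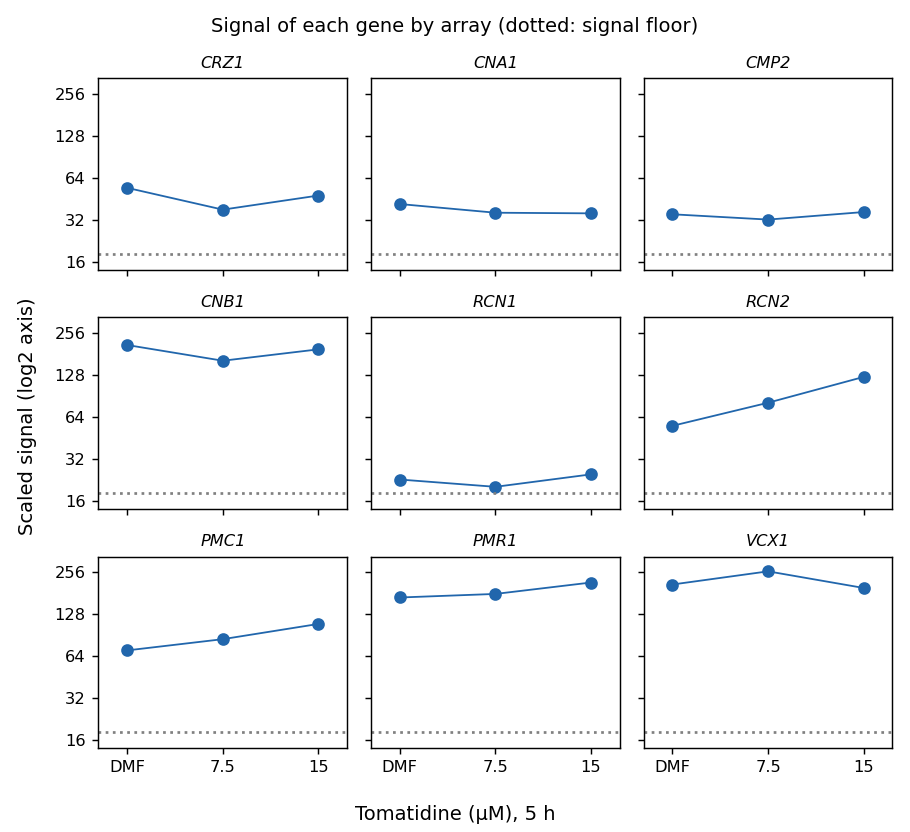
Scaled signal of each of the 9 genes (vertical axis, log2 spacing, arbitrary units) on the arrays with DMF, 7.5 µM and 15 µM tomatidine (horizontal axis), with 1 point per array and the signal floor of 18.2 dotted. RCN2, PMC1 and PMR1 lie higher at each step, while CRZ1, CNB1, RCN1 and CMP2 are lowest at 7.5 µM and VCX1 is highest there.

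RCN2 (YOR220W) had a scaled signal of 55.1 with DMF, 80.7 at 7.5 µM and 124 at 15 µM. Each dose was above the one before it. In RNA of a whole culture, more cells with the transcript and more transcript per cell cannot be told apart. The ratio was 2.24-fold at 15 µM over DMF, 1.46-fold at 7.5 µM over DMF, and 1.53-fold at 15 µM over 7.5 µM. Of 4723 compared genes, 84 had a larger ratio at 15 µM over DMF and 458 a larger one at 7.5 µM over DMF. The difference between doses does not involve the DMF array, and in it 162 genes had a larger ratio than RCN2.

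RCN1 (YKL159C), the other yeast calcipressin gene, whose product inhibits calcineurin when it is abundant, had another order. Its scaled signal was 22.7 with DMF, 20.1 at 7.5 µM and 24.7 at 15 µM. All 3 values were just above the floor and within 1.23-fold of each other. The log2 ratios were 0.12 at 15 µM over DMF and -0.17 at 7.5 µM over DMF. A ratio between genes within an array does not depend on the scaling of that array. Against RCN1, RCN2 was 2.06-fold higher at 15 µM than with DMF and 1.65-fold higher at 7.5 µM than with DMF, so the calcipressin genes changed unequally on these arrays.

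Of the transporters, PMC1 (YGL006W) encodes the ATP-driven pump that moves calcium into the vacuole, the main calcium store of yeast. Its scaled signal was 70.0 with DMF, 84.3 at 7.5 µM and 108 at 15 µM. The order followed the dose, as for RCN2. PMC1 was 1.55-fold higher at 15 µM than with DMF and 1.20-fold higher at 7.5 µM than with DMF, and 341 and 1007 of the compared genes had larger ratios. At 15 µM over 7.5 µM it was at 1.29-fold.

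PMR1 (YGL167C) encodes a related pump that fills the Golgi with calcium and manganese. Its scaled signal was 168 with DMF, 178 at 7.5 µM and 215 at 15 µM. Its log2 ratios were 0.36 at 15 µM over DMF and 0.09 at 7.5 µM over DMF, both under 1.5-fold. Within the arrays, the ratio of PMC1 to PMR1 was 1.21-fold higher at 15 µM than with DMF.

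VCX1 (YDL128W), the vacuolar exchanger that takes up calcium in return for protons and needs no ATP of its own, had another order. Its scaled signal was 208 with DMF, 258 at 7.5 µM and 196 at 15 µM. The middle dose was the highest and the other arrays were close to each other. The log2 ratio was -0.08 at 15 µM over DMF, 0.31 at 7.5 µM over DMF and -0.40 at 15 µM over 7.5 µM. The ratio of PMC1 to VCX1 within an array was 1.64-fold higher at 15 µM than with DMF, and 1.69-fold higher at 15 µM than at 7.5 µM. Between 7.5 µM and DMF it was nearly the same, at a factor of 0.968. Both proteins carry calcium across the same membrane, and their genes changed unequally at the higher dose on these arrays.

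The genes of the enzyme differed little. CNA1 (YLR433C) and CMP2 (YML057W) encode alternative catalytic subunits of calcineurin. CNA1 had a scaled signal of 41.5 with DMF, 35.9 at 7.5 µM and 35.5 at 15 µM. CMP2 had 35.0 with DMF, 32.1 at 7.5 µM and 36.3 at 15 µM. The lowest and highest array were within 1.17-fold of each other for CNA1 and within 1.13-fold for CMP2. Log2 ratios at 15 µM over DMF were -0.22 for CNA1 and 0.05 for CMP2.

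CNB1 (YKL190W), the regulatory subunit that binds calcium, was read by 2 probe sets. The brighter had a scaled signal of 209 with DMF, 162 at 7.5 µM and 195 at 15 µM, and the dimmer had 95.1, 98.9 and 94.4 in the same order. The brighter probe set had a log2 ratio of -0.37 at 7.5 µM over DMF, and the dimmer 0.06. They gave -0.10 and -0.01 at 15 µM over DMF. The dip at 7.5 µM was thus seen in the brighter probe set and not in the dimmer.

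CRZ1 (YNL027W), the transcription factor itself, had a scaled signal of 54.2 with DMF, 37.8 at 7.5 µM and 47.7 at 15 µM. Both tomatidine arrays were below the DMF array, and 7.5 µM was the lowest. The log2 ratio was -0.52 at 7.5 µM over DMF, where 344 of the compared genes had a lower one, and -0.18 at 15 µM over DMF. With spike scaling the signs turned, to 0.17 at 7.5 µM and 0.65 at 15 µM over DMF, and relative to the median of all genes under that scaling they were -0.42 and -0.09. Relative to CRZ1, RCN2 was 2.55-fold higher at 15 µM than with DMF.

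Counted over all 9 genes, 2 were at least 1.5-fold higher at 15 µM than with DMF, RCN2 and PMC1, against 8.26% of the 4723 compared genes. Of these, RCN2 was also at least 2-fold higher, against 2.73% of the compared genes. None was 1.5-fold or 2-fold lower, against 6.9% and 1.14%. The median log2 ratio of the 9 genes was 0.05, against -0.03 over all compared genes, with 5 of 9 above 0, against 46.3% of all. With 7.5 µM over DMF none was 1.5-fold higher or lower, against 8.62% and 5.21% of the compared genes, and none was 2-fold higher or lower, against 1.99% and 0.614%. RCN2 lay just under the 1.5-fold line there. The median was -0.13, against -0.03 over all compared genes, with 4 of 9 above 0, against 44.8% of all.

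In the comparison of doses, 15 µM over 7.5 µM, 1 of the 9 was at least 1.5-fold higher, RCN2, against 4.07% of the compared genes, and none was 1.5-fold lower, against 3.09%. None reached 2-fold, which 0.72% of the compared genes did upwards and 0.296% downwards. The median was 0.27, against 0 over all compared genes, and 7 of 9 were above 0, against 48.1% of all. The comparisons with DMF share the DMF array, and each shares a tomatidine array with the comparison between doses.

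**Figure D2:**
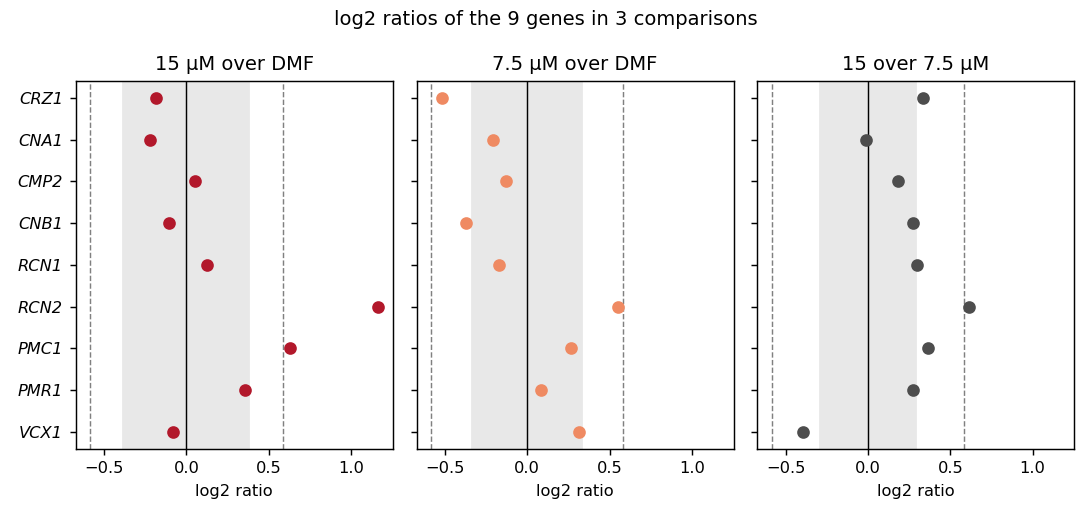
Log2 ratios (horizontal axis) of the 9 genes (vertical axis) for 15 µM over DMF, 7.5 µM over DMF and 15 µM over 7.5 µM, with 1 point per gene. The grey band is the pooled SD between probe sets of the same gene (0.38, 0.34 and 0.29), the dashed lines mark 1.5-fold, and RCN2 and PMC1 are past the upper line at 15 µM over DMF.

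Without replicates, the nearest measured error is the spread between probe sets that read the same gene. For 173 genes such a spread could be had from 2 or more probe sets above the floor, and its pooled SD on the log2 scale was 0.38 at 15 µM over DMF, 0.34 at 7.5 µM over DMF and 0.29 at 15 µM over 7.5 µM. This is an error of the probes, and differences between cultures are not in it. RCN2 and PMC1 had ratios larger than this SD at 15 µM over DMF, and the other 7 genes had smaller ones. PMC1 and PMR1 differed there by 0.27 on the log2 scale, less than the SD, so they are not set apart. At 7.5 µM over DMF, RCN2, CRZ1 and CNB1 were beyond it, the last with its brighter probe set alone. Between the doses, RCN2, PMC1, CRZ1 and RCN1 were beyond it upwards at 15 µM, the last just so, and VCX1 downwards. For CRZ1 and RCN1 this depended on the floor. With the floor at the 60th percentile CRZ1 was at -0.25 at 7.5 µM over DMF and 0.07 between the doses, both within these SDs. RCN1 was then at 0 between the doses.

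Across the table, 796 of the 4723 compared genes, or 16.9%, had signals in the order DMF, 7.5 µM, 15 µM from low to high, and 3 of the 9 genes did so. A single gene, CNA1, had the opposite order, as did 22.0% of the compared genes. RCN2 combined this order with steps of similar size, 0.55 and 0.62 on the log2 scale. Chosen after the values were seen, the genes with both steps at least as large as those of RCN2 numbered 26, or 0.55% of the compared genes. GSC2 and CMK2, described next, were among them.

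Of other genes known from yeast to be switched on through calcineurin and Crz1, 10 were picked as a list, and 9 of these were compared. The list is a selection and not the full set, so its counts are not shares of all such genes. Like the lists below, it was drawn up with earlier results of these data known, so its counts are not independent of the values. ENA1, the sodium pump, was read by shared probe sets alone and is not counted. On the list 5 of 9 reached 1.5-fold upwards at 15 µM over DMF and 3 of 9 reached 2-fold, against 8.26% and 2.73% of the compared genes. None was 1.5-fold lower, against 6.9%. The median log2 ratio was 0.63, against -0.03 over all compared genes, with 7 of 9 above 0, against 46.3% of all. With the floor at the 60th percentile MEP1, an ammonium transporter gene, was no longer compared. Then 4 of 8 were at least 1.5-fold higher, against 234 of the 3313 genes compared there. With spike scaling, which moves all genes upwards, 9 of 9 were, against 3177 of 4829 compared genes.

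GSC2, a subunit of the glucan synthase that is made under stress, had a scaled signal of 51.3 with DMF, 116 at 7.5 µM and 416 at 15 µM. Its step between the doses was the largest of the 9. GSC2 was 8.11-fold higher at 15 µM than with DMF and 2.27-fold higher at 7.5 µM than with DMF. Of its 7 probe sets 4 were under the floor on all arrays, and the other dimmer ones gave 5.01-fold and 3.87-fold at 15 µM over DMF, the second against a DMF signal at the floor and so a lower bound. With all 7 averaged, the log2 ratio of GSC2 was 1.04 at 15 µM over DMF, 0.42 at 7.5 µM over DMF and 0.62 at 15 µM over 7.5 µM.

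CMK2, a calmodulin-dependent protein kinase, had a scaled signal of 27.3 with DMF, 54.3 at 7.5 µM and 107 at 15 µM. The signal was higher by close to the same factor at each step, with log2 ratios of 0.99 at 7.5 µM over DMF and 0.97 at 15 µM over 7.5 µM. CMK2 was 3.90-fold higher at 15 µM than with DMF. The floor at the 60th percentile lies above its DMF signal, and the log2 ratios were then 1.22 at 15 µM over DMF and 0.25 at 7.5 µM over DMF.

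PHO89, a sodium and phosphate cotransporter that is also controlled by phosphate, had a scaled signal of 253 with DMF, 888 at 7.5 µM and 1052 at 15 µM. Most of its difference was present at the lower dose, with log2 ratios over DMF of 1.81 at 7.5 µM and 2.05 at 15 µM. YPS1, a protease anchored at the cell surface, had 162 with DMF, 165 at 7.5 µM and 261 at 15 µM. For YPS1 the DMF and 7.5 µM arrays were close together, and it was 1.62-fold higher at 15 µM than with DMF.

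MEP1 had a scaled signal of 22.9 with DMF, 34.6 at 7.5 µM and 35.5 at 15 µM. Its log2 ratio was 0.63 at 15 µM over DMF and 0.60 at 7.5 µM over DMF. The remaining genes of the list were below 1.5-fold, with log2 ratios at 15 µM over DMF of 0.43 for GYP7, 0.09 for CRH1, -0.16 for PLB3 and -0.17 for CHS1. GYP7 encodes a GTPase-activating protein of vesicle transport, CRH1 a cell wall crosslinking enzyme, PLB3 a phospholipase and CHS1 a chitin synthase.

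At 7.5 µM over DMF 4 of the 9 targets were at least 1.5-fold higher, GSC2, CMK2, PHO89 and MEP1, and GSC2 and PHO89 passed 2-fold, against 8.62% and 1.99% of the compared genes. That count was 2 of 8 with the floor at the 60th percentile, against 241 of 3313 compared genes. It was 3 of 9 with no floor or with probe sets averaged per gene, against 634 of 5656 and 386 of 4724. With spike scaling it was 8 of 9, against 2431 of 4829. The median was 0.19. Between the doses 3 were at least 1.5-fold higher, GSC2, CMK2 and YPS1, against 4.07%, and the median was 0.29. Signals lay in the order DMF, 7.5 µM, 15 µM from low to high for 5 of 9, against 16.9% of the compared genes. For YPS1 at 7.5 µM over DMF and for MEP1 between the doses the step was 1.02-fold, far under the probe set SD.

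**Figure D3:**
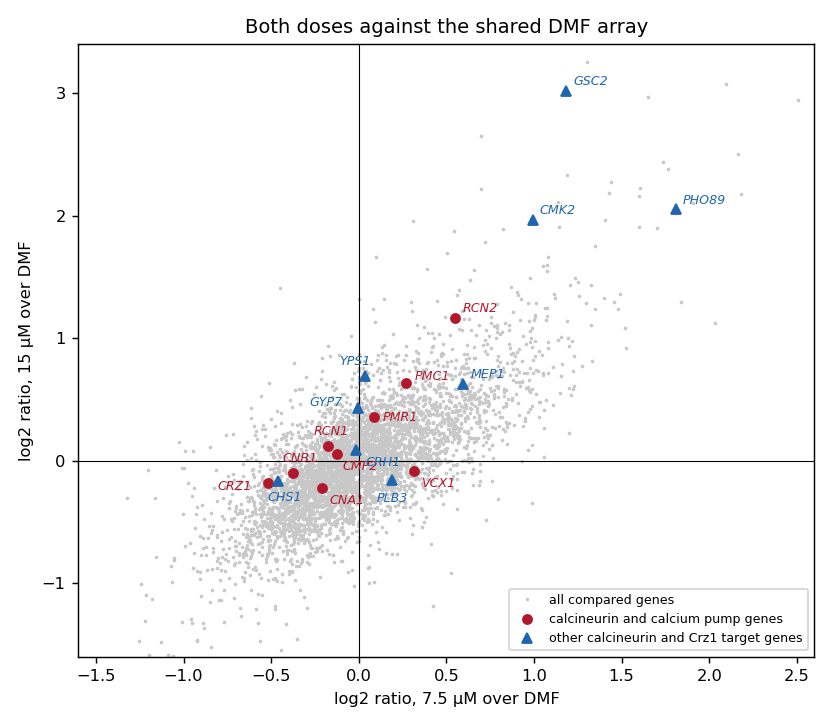
Log2 ratios at 7.5 µM over DMF (horizontal axis) and at 15 µM over DMF (vertical axis) for the compared genes in grey, the 9 calcineurin and calcium pump genes as red circles and 9 other target genes as blue triangles, with 14 genes outside the axes. Both axes use the same DMF array. GSC2, PHO89, CMK2 and RCN2 lie toward the upper right and the subunit genes near the origin.

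Genes of calcium entry and calcium sensing made a list of 10, of which 9 were compared and FIG1, a membrane protein of the mating response, was under the floor. CCH1 was at least 1.5-fold higher at 15 µM over DMF, and CCH1 and YVC1 were at 7.5 µM over DMF, against 8.26% and 8.62% of the compared genes. Between the doses 1 gene, YVC1, was at least 1.5-fold lower at 15 µM, against 3.09%, and none was higher by that much, against 4.07%. The median between the doses was -0.11, with 2 of 9 above 0, against 48.1% of all. CCH1, the pore subunit of the plasma membrane calcium channel, had a scaled signal of 32.7 with DMF, 56.8 at 7.5 µM and 49.3 at 15 µM. Both tomatidine arrays were above the DMF array. Its ratio was 1.51-fold at 15 µM over DMF and 1.74-fold at 7.5 µM over DMF.

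The CCH1 probe sets did not give the same ratios. Of the next brightest, 1 gave 1.63-fold at 15 µM over DMF and 1.05-fold at 7.5 µM over DMF. The other was above the floor with DMF alone, and gave a log2 ratio of at most -0.53 at both doses. The remaining 6 were under the floor on all arrays. YVC1, the channel that releases calcium from the vacuole, had 29.8 with DMF, 62.0 at 7.5 µM and 39.6 at 15 µM. Its middle dose was highest, as for VCX1, at 2.08-fold over DMF. MID1, the partner subunit of Cch1, had log2 ratios of -0.23 at 15 µM over DMF and -0.40 at 7.5 µM over DMF. CMD1, calmodulin, had 0.37 and 0.44 in the same order. SPF1, an ATPase of the endoplasmic reticulum, and GDT1, a Golgi calcium and manganese transporter, had 0.16 and -0.16 at 7.5 µM over DMF.

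Binding partners of calcineurin and regulators of Crz1 made a list of 11, of which 9 were compared, with FPR1 not analysed here and FRT2 under the floor. SLM1 was at least 1.5-fold higher at 15 µM over DMF, against 8.26% of the compared genes. SLM1 and MSN5 were at 7.5 µM over DMF, against 8.62%. None was lower by that much, against 6.9% and 5.21%. SLM1, a plasma membrane protein that calcineurin acts on, was under the floor with DMF. It was at least 1.70-fold higher at 15 µM and at least 2.16-fold higher at 7.5 µM. MSN5, the exporter that carries Crz1 out of the nucleus, had a scaled signal of 107 with DMF, 173 at 7.5 µM and 150 at 15 µM. Its log2 ratios were 0.48 at 15 µM over DMF and 0.69 at 7.5 µM over DMF. NMD5, the importer of Crz1, had -0.19 and -0.27 in the same order, and CPR1, the cyclophilin through which cyclosporin inhibits calcineurin, had -0.07 and -0.37.

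The nearest relatives by protein family were used to see where PMC1, PMR1 and the catalytic subunits stood. Of 12 other P-type ATPase genes compared, none was at least 1.5-fold higher at 15 µM over DMF, against 8.26% of all compared genes, and 2 were at least 1.5-fold lower, against 6.9%. These were DRS2, a lipid flippase, at a log2 ratio of -0.97 and PMA2, a minor proton pump, at -0.77. At 7.5 µM over DMF ENA5, a sodium pump gene with near-identical copies and so uncertain, was at 1.58-fold, the only 1 of 12 past 1.5-fold upwards, against 8.62%. The median of the family was 0.10 at 15 µM over DMF. With signals raised to the floor, PMC1 at 0.63 was above the largest single-gene ratio in the family, 0.55 for ENA5. PMR1 at 0.36 lay below ENA5, DNF3 and PCA1. The ratio of PMC1 at 7.5 µM over DMF, 0.27, lay below those of ENA5 (0.66), CCC2 (0.52), PCA1 (0.40) and DNF3 (0.38). PCA1 and DNF3 were under the floor with DMF, so their ratios are lower bounds at both doses. Whether either was past 1.5-fold or above PMC1 at 15 µM over DMF is therefore not settled. ENA1 and ENA2 were left out of these counts because their probe sets also read other ENA genes. Those shared probe sets, 2 in number, were 2.01-fold and 2.70-fold higher at 15 µM than with DMF, more than PMC1. Of 10 other phosphatase catalytic subunits of the same family as calcineurin, none reached 1.5-fold at 15 µM over DMF, against 8.26% upwards and 6.9% downwards. PPH22, PPZ2 and PPT1 did so upwards at 7.5 µM, against 8.62%, with log2 ratios of 0.83, 0.74 and 0.65, and none downwards, against 5.21%. CNA1 and CMP2 had -0.21 and -0.13 at 7.5 µM.

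Genes with the ratios most like those of RCN2 were sought by distance in the pair of log2 ratios over DMF, over 3 arrays and 4208 genes above the floor on all of them. The closest were YGR201C, PAU10 and YIL108W, at distances of 0.05, 0.06 and 0.06. PAU10 belongs to a family of near-identical genes, so its value is uncertain. Within a distance of 0.2 of RCN2 lay 17 genes. For PMC1 the closest were MCR1, CTP1 and LYS12, at distances of 0.02, 0.03 and 0.03, and 111 genes lay within 0.2. A pair of ratios that share an array is little to match on, and many genes met it.

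The values of RCN2 and PMC1 at 15 µM over DMF were little moved by other ways of processing, apart from spike scaling. Some of these ways could not move them. Each gene has 1 probe set with signals above both other floors, so those floors and the mean of all probe sets left the values as they were. Over the other 7 settings the log2 ratio of RCN2 ran from 1.14 to 1.26 and that of PMC1 from 0.62 to 0.73. With spike scaling all 9 genes were at least 1.5-fold higher at 15 µM than with DMF, as were 3177 of 4829 compared genes. Relative to the median of all compared genes under that scaling, the log2 ratios were 1.26 for RCN2, 0.72 for PMC1, 0.45 for PMR1 and between -0.13 and 0.15 for the other 6.

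**Figure D4:**
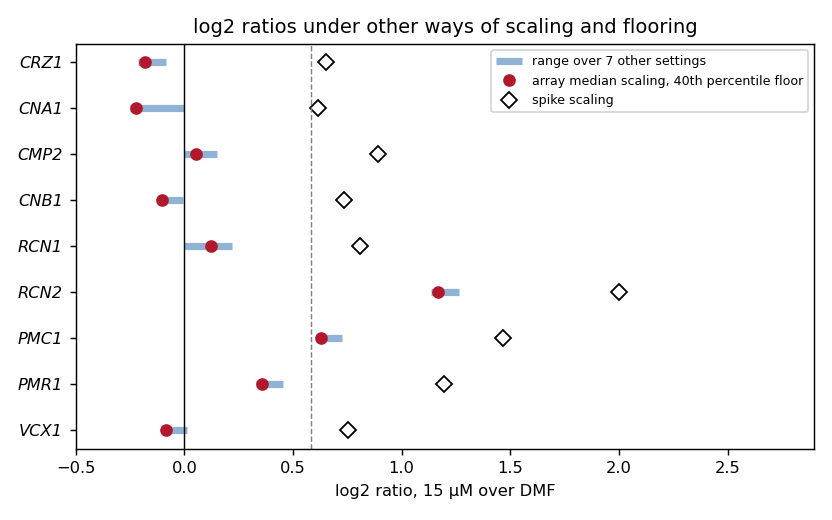
Log2 ratios at 15 µM over DMF (horizontal axis) for the 9 genes (vertical axis), as red points for the values given above, blue bars for the range over 7 other settings, and open diamonds for spike scaling, with 1.5-fold dashed. RCN2 and PMC1 stay to the right of the dashed line under each setting, and spike scaling moves all 9 genes to the right.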

How the data were processed

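Total RNA was measured on 3 arrays, 1 per condition. The deposited intensity values are 1 linear summary signal per probe set, made by the authors; how they were summarised and background-corrected, and the genome build, is not given in the sources used here. Of 9335 probe sets, 60 are controls, 6504 have 1 gene in the given annotation, 328 have several and 2443 have no entry. All 6504 matched the R64 gene table. The brightest probe set by mean signal was used per gene. Arrays were scaled to the median of non-control probe sets (factors 0.974, 0.987 and 1.04 for 15 µM, 7.5 µM and DMF), floored, and put on the log2 scale. The calculation of ratios was checked on simulated data with less noise than the spread between probe sets here, and with changes in bright genes alone. That check does not show how well ratios of dimmer genes are recovered. Named were the 9 genes, genes of each list at 1.5-fold or more with up to 4 bright others, and the 3 nearest genes to RCN2 and PMC1. Where the text describes a list further, those genes were chosen after their values were seen. The 9 genes and the lists were chosen with earlier results of these data known. Other settings tried were lowess centring (span 0.3), quantile normalisation, spike scaling (8 probe sets), the unscaled deposited values, a 20th or 60th percentile floor, a pseudocount of 0.584 (the 5th percentile) in place of the floor, and the mean of all probe sets. Tools were matplotlib 3.10.9, statsmodels 0.14.6, pandas 2.3.3 and numpy 2.4.6 under Python 3.11.15.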

Additional observations from a re-analysis of the deposited data

How the results depend on the processing

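With spike scaling the median log2 ratio of the 9 genes was 0.81 at 15 µM over DMF and 0.56 at 7.5 µM over DMF. In the same order 9 and 4 of them were at least 1.5-fold higher, against 3177 and 2431 of 4829 compared genes. With the values as deposited 1 gene, RCN2, was at least 1.5-fold higher at 7.5 µM over DMF, against 513 of 4723. RCN2 and PMC1 were at least 1.5-fold higher at 15 µM over DMF under all 8 alternatives, and RCN2 at 15 µM over 7.5 µM too. CNA1, CMP2 and RCN1 reached 0 with the floor at the 60th percentile, which lies above their signals.

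Over all compared genes, calls at 15 µM over DMF of 2-fold or more numbered 1295 with spike scaling, 345 and 112 with floors at the 20th and 60th percentile and 491 with no floor, against 183; at 1.5-fold or more they numbered 3199, 1109, 413 and 1274, against 716. At 7.5 µM over DMF they were 802, 285, 66 and 463 at 2-fold, against 123, and 2440, 1060, 363 and 1254 at 1.5-fold, against 653. At 15 µM over 7.5 µM floors at the 20th and 60th percentile and no floor gave 175, 17 and 379 at 2-fold, against 48, and 705, 149 and 884 at 1.5-fold, against 338. The genes compared numbered 5455 and 3313 with those floors and 5656 with no floor. Of the 2-fold calls at 7.5 µM over DMF 94 were higher and 29 lower; the deposited values without scaling gave 126 and 19, and spike scaling 798 and 4. Of the 1.5-fold calls at 15 µM over DMF 390 were higher and 326 lower; the unscaled values gave 532 and 220, and spike scaling 3177 and 22. For 7.5 µM over DMF at 1.5-fold the split was 407 and 246, with 513 and 156 unscaled and 2431 and 9 with spike scaling. Spike scaling also gave 1288 and 7 at 2-fold for 15 µM over DMF, against 129 and 54, and for 15 µM over 7.5 µM 68 and 4 at 2-fold, against 34 and 14, and 411 and 67 at 1.5-fold, against 192 and 146.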

Other observations

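In the gene order of the R64 assembly, the neighbours of the 9 genes were set beside them. RCN2 lies next to STE13, a protease gene of alpha-factor maturation, and to MCT1. STE13 had log2 ratios of 0.50 at 15 µM over DMF and 0.41 at 7.5 µM over DMF, and MCT1 had 0.18 and 0.73, both with a smaller ratio than RCN2 at 15 µM. At 7.5 µM over DMF, where RCN2 had 0.55, MCT1 was above it and STE13 below it. CUP2, the copper-responsive transcription factor gene beside PMR1, was 1.75-fold higher at 15 µM than with DMF and at 1.02-fold at 7.5 µM over DMF, above the 1.28-fold of PMR1 at 15 µM. KTR5, a mannosyltransferase homolog gene beside CRZ1, had log2 ratios of -0.90 at 15 µM over DMF and -0.92 at 7.5 µM over DMF. Both neighbours of PMC1 were under the floor on all 3 arrays.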
